A study of Homo sapiens with 6 samples.

Results

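The pentose phosphate pathway takes glucose phosphate out of glycolysis. Its oxidative branch reduces NADP to NADPH and releases a pentose phosphate, whereas its non-oxidative branch interconverts pentose phosphates with glycolytic sugar phosphates in both directions. Ribose phosphate leaves the pathway through the PRPP synthetases, which activate it to phosphoribosyl pyrophosphate (PRPP), the ribose donor for purine, pyrimidine and NAD synthesis. In tumor cells the pathway is known as a source of both reducing power and nucleotide precursors. Described here are 9 of the 60668 genes in the deposited table, chosen by name: H6PD, PGLS and PGD of the oxidative branch, RPE, RPIA, TKT and TALDO1 of the non-oxidative branch, and the PRPP synthetases PRPS1 and PRPS2. Not every enzyme of the pathway was analysed here.

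MiaPaCa-2, a human pancreatic ductal adenocarcinoma cell line, was grown for 48 h in 2.5 mM glucose (low glucose, 3 libraries) or 25 mM glucose (control, 3 libraries), without any other treatment or allele that the labels name, and strand-specific RNA-seq was performed. The comparison shows how the mRNAs of the pathway differed after glucose withdrawal. The control libraries are called A, B and C, and the low-glucose libraries D, E and F. The labels name 2 of the 6 columns, D and E, as low glucose replicates 1 and 2. The remaining 4 were assigned from the column names, a run of 3 per condition, and from a grouping supplied with the choice of genes. The names themselves state no condition, so the identity of the control columns rests on that grouping. The treatment text of the labels gives 2.5 mM for the control samples as well, whose titles call them control. The 25 mM given here for control is the glucose of the standard culture medium in the study's methods. The labels do not give the origin of the cultures, the study's design text calls the replicates independent, and all came from 1 cell line, so that the errors below describe only this line.

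Depth was 9741183 to 10190154 reads on genes in control and 10595408 to 13733477 in low glucose. Pearson's correlation between libraries over log2 values was 0.974 to 0.978 within control, 0.982 to 0.983 within low glucose and 0.963 to 0.970 between the conditions, as a description over genes. No replicate pair agreed within sampling noise (chi-square per gene of 1.90 to 18.9, where noise alone gives about 1), and library B stood farthest from the other control libraries (8.74 and 18.9 against 4.63 between A and C). Among markers of the line, KRT8, KRT18 and VIM had 13896 reads or more in every library, and CDKN2A, which is deleted in this line, had 0 reads in all 6. The blood marker PTPRC and the acinar markers PRSS1 and CPA1 also had 0 reads, and the fibroblast collagens COL1A1 and COL3A1 had 3 to 35 reads.

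All 9 genes were well measured, with 495 to 6198 reads per library. Under low glucose 3 of the 9 fell (PRPS2, PRPS1 and TKT), 1 rose (PGLS), and 5 did not pass limma's test at an adjusted p of 0.05. Over all 21101 genes tested, 16.2% passed as lower, 14.7% as higher and 30.9% in either direction. The 9 genes lie high in the range of expression, and among the 4112 tested genes with a mean at or above that of the lowest of them (RPIA, 576 normalized counts), 43.7% passed as lower, 13.7% as higher and 57.4% in either direction. With quantile normalization 27.7% of the 4112 passed as lower, and without a variance trend 25.0%. The median log2 fold change was -0.13 over the 9 genes, 0.05 over all tested genes and -0.18 over the 4112. Both PRPP synthetases fell, in the non-oxidative branch 1 of 4 fell and 0 rose, and in the oxidative branch 1 of 3 rose and 0 fell. The median log2 fold change was -0.81 for the PRPP synthetases, -0.19 for the non-oxidative branch and 0.05 for the oxidative branch. With 1 library left out, the oxidative median ran from -0.057 (without library C) to 0.19 (without library B) and so changed sign, and the non-oxidative median ran from -0.24 (without library B) to -0.11 (without library C). These medians describe 2 to 4 genes each, and the difference between branches was not tested. Without library B, H6PD (0.19, limma adjusted p = 0.0414) passed as higher and RPIA (-0.31, limma adjusted p = 0.00913) as lower, so that 2 rose and 4 fell. In that fit 730 of the 4112 passed as higher and 1986 (48.3%) as lower. Quantile normalization also gave 2 higher genes, because TALDO1 passed, where 979 of the 4112 passed as higher. On the recovered reads, edgeR and DESeq2 each passed 4 of the 9, 3 lower and 1 higher, where they passed 42.8% and 31.5% of all the genes to which they gave an adjusted p. Among the 4112, edgeR passed 646 as higher and 1772 (43.1%) as lower, and DESeq2 passed 543 and 1777 (43.2%).

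**Figure D1:**
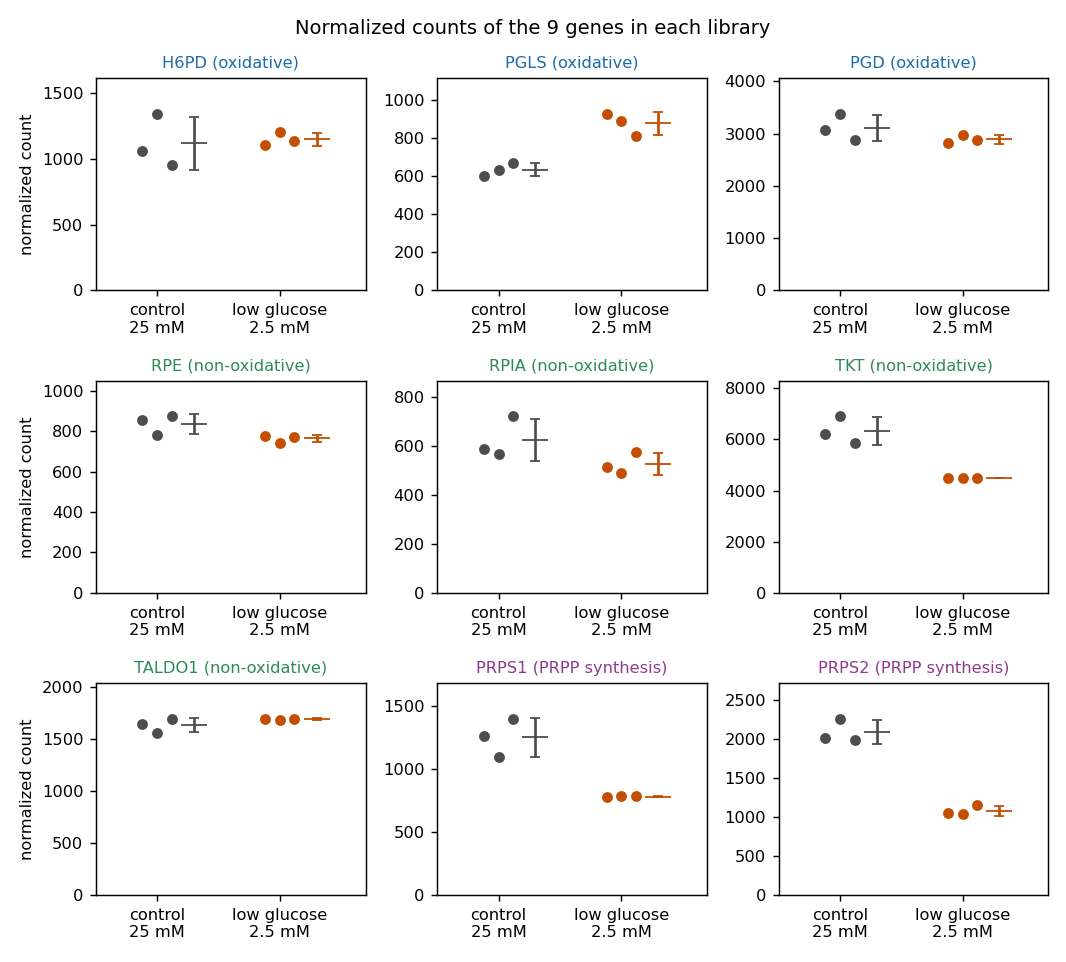
Normalized counts (vertical axes, starting at 0) of the 9 genes in the 3 control libraries (gray, 25 mM glucose) and the 3 low-glucose libraries (orange, 2.5 mM glucose). Points are libraries in the order A to F, and the bar beside them is the mean with its SD (n = 3). PRPS1, PRPS2, TKT and, narrowly, RPE separate downward and PGLS upward. The groups of 43.9% of all tested genes, and of 69.0% of the 4112 at or above the level of RPIA, do not overlap either.

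PRPS2 (ENSG00000101911.12, chrX:12791355-12824222 of hg38, plus strand, 7 exons) encodes one of the synthetases that make PRPP from ribose phosphate and ATP. Its normalized counts were 2010, 2257 and 1990 in control libraries A, B and C and 1053, 1037 and 1152 in low-glucose libraries D, E and F. Every low-glucose library was far below every control library. The mean was 2086 ± 149 (SD, n = 3) in control and 1081 ± 62.4 (SD, n = 3) in low glucose, a 1.93-fold lower level. The log2 fold change was -0.95 (standard error, SE, 0.0806, adjusted p = 1.18e-06 in limma), and 3.41% of all tested genes had a lower one. PRPS2 had the strongest fall of the 9 genes under each of the 15 alternatives.

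PRPS1 (ENSG00000147224.11, chrX:107628428-107651993 of hg38, plus strand, 7 exons) encodes the other widely expressed PRPP synthetase, which catalyzes the same reaction. It was measured at 1262, 1096 and 1402 normalized counts in the control libraries and at 778, 787 and 785 in the low-glucose libraries. The groups did not overlap, and the low-glucose libraries lay close together. That closeness rests on 3 values, and the difference in spread was not tested. The mean fell from 1253 ± 153 (SD, n = 3) to 784 ± 4.73 (SD, n = 3), a 1.60-fold lower level, with a log2 fold change of -0.67 (SE 0.0910, adjusted p = 7.21e-05 in limma). Reads of the paralogs can be told apart in most places: the longest stretch shared without a mismatch by any PRPS1 and PRPS2 transcript was 23 bases, against reads of 150 bases. The pseudogene PRPS1P2 shares up to 77 bases with PRPS1 and had 10 to 17 reads per library. PRPS1L1, the testis form, shares up to 74 bases and had 0 reads.

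Per kilobase of transcript, PRPS2 made up 57.2, 63.3 and 54.3% of the summed level of both synthetases in the control libraries and 53.2, 52.5 and 55.2% in the low-glucose libraries. The conditions overlapped, so a different size of the fall of the paralogs was not shown. The log2 ratio of PRPS2 to PRPS1 per kilobase was highest in library B, at 0.79, and 0.14 to 0.42 in the other libraries. PRPSAP1 and PRPSAP2, the associated proteins that join the synthetases in 1 complex without making PRPP, had log2 fold changes of -0.05 and -0.06 (95% confidence intervals -0.25 to 0.16 and -0.30 to 0.18) and did not pass. The log2 ratio of PRPS1 to PRPSAP1 per kilobase was 2.12, 2.06 and 2.12 in control and 1.48, 1.43 and 1.52 in low glucose. The ratios thus separated the conditions completely, with a mean difference of -0.62, as PRPS1 alone did, whereas PRPSAP1 itself overlapped between them.

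TKT (ENSG00000163931.16, chr3:53224712-53256052 of hg38, minus strand, 14 exons) encodes transketolase, which moves ketol units between sugar phosphates and ties the pentoses to glycolysis. Its normalized counts were 6228, 6908 and 5859 in control and 4491, 4505 and 4506 in low glucose. All low-glucose libraries were below all control libraries, and their SD of 8.14 (n = 3) was small beside that of control (532, n = 3). An SD of 3 values is itself uncertain, and the difference in spread was not tested. Over all genes the low-glucose pairs differed beyond sampling noise (chi-square per gene of 1.90 to 2.89). The mean of TKT fell from 6332 to 4501, a 1.41-fold lower level (log2 fold change -0.49, SE 0.0792, adjusted p = 0.000301 in limma). The related genes TKTL1 and TKTL2 had 0 or 1 read in each library and share at most 20 bases with TKT without a mismatch.

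TALDO1 (ENSG00000177156.11, chr11:747415-765012 of hg38, plus strand, 8 exons) encodes transaldolase, which works beside transketolase in the same sequence of reactions. It was measured at 1646, 1565 and 1695 normalized counts in control and at 1695, 1681 and 1698 in low glucose. The libraries of the conditions overlapped, and the log2 fold change of 0.05 (95% confidence interval -0.10 to 0.20, limma adjusted p = 0.650) did not pass. After quantile normalization it was 0.26 and passed (limma adjusted p = 0.0135, range 0.0135 to 0.857 over all alternatives). The log2 ratio of TKT to TALDO1 per kilobase was 0.60, 0.82 and 0.47 in control and 0.08, 0.10 and 0.09 in low glucose. This ratio, which a scaling by 1 factor per library cannot change, did not overlap between the conditions and was 0.54 lower on average under low glucose. TKT alone did not overlap either.

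RPE (ENSG00000197713.15, chr2:210002565-210022260 of hg38, plus strand, 6 exons) encodes the epimerase and RPIA (ENSG00000153574.9, chr2:88691673-88750929 of hg38, plus strand, 9 exons) the isomerase that share out ribulose phosphate, the product of the oxidative branch. RPE had 854, 779 and 873 normalized counts in control and 776, 742 and 773 in low glucose. The ranges narrowly failed to overlap, where the groups of 43.9% of all tested genes, and of 69.0% of the 4112, did not overlap either. The log2 fold change of RPE was -0.13 (95% confidence interval -0.30 to 0.04, limma adjusted p = 0.252). RPIA had 587, 566 and 722 normalized counts in control and 516, 489 and 575 in low glucose. Library F lay between control libraries B and A, and the log2 fold change of -0.24 (95% confidence interval -0.47 to -0.02 before adjustment, limma adjusted p = 0.0948, range 0.00913 to 0.308 over all alternatives) did not pass, although it did without library B. RPE shares 840 bases of exon with KANSL1L on the other strand, which had 22.1% of the level of RPE over all 6 libraries and rose by 0.55 (SE 0.137, adjusted p = 0.00668 in limma). The strand setting of the counting is not stated, so the value of RPE is uncertain to that extent. RPEL1, a copy of RPE without introns that shares up to 139 bases, had at most 1 read in any library.

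PGLS (ENSG00000130313.7, chr19:17511636-17521288 of hg38, plus strand, 5 exons) encodes the lactonase that opens phosphogluconolactone in the cytosol, the middle step of the oxidative branch. Its normalized counts were 603, 630 and 669 in control and 927, 890 and 812 in low glucose. The groups did not overlap, low glucose being higher throughout, and the mean rose from 634 ± 33.0 (SD, n = 3) to 876 ± 59.1 (SD, n = 3), or 1.38-fold. The log2 fold change was 0.47 (SE 0.0847, adjusted p = 0.000775 in limma), and 25.4% of all tested genes had a higher one, but 6.06% of the 4112 genes at or above the level of RPIA. PGLS-DT, a noncoding RNA on the other strand that shares 254 bases of exon with PGLS, had 37.6% of its level. PGLS-DT rose by 0.39 (SE 0.112, adjusted p = 0.0150 in limma), so reads of both genes may be mixed in either value, and the part of this in the rise of PGLS was not tested.

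PGD (ENSG00000142657.21, chr1:10398592-10420511 of hg38, plus strand, 13 exons) encodes phosphogluconate dehydrogenase, the NADPH-generating last step of the branch. Its normalized counts were 3066, 3378 and 2876 in control and 2819, 2975 and 2871 in low glucose, and the ranges overlapped. The 95% confidence interval of its log2 fold change was -0.27 to 0.07, which leaves room for a fall but not for one as large as that of TKT (-0.49). The log2 ratio of TKT to PGD per kilobase was steady within each condition, at 0.62, 0.63 and 0.62 in control and 0.27, 0.20 and 0.25 in low glucose. The log2 ratio of PGLS to PGD moved the other way, from -1.18, -1.25 and -0.93 to -0.43, -0.57 and -0.65. Neither ratio overlapped between the conditions, where TKT and PGLS alone did not overlap either. The share of all gene pairs whose ratios separate in this way was not computed.

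H6PD (ENSG00000049239.12, chr1:9234774-9271337 of hg38, plus strand, 5 exons) encodes a bifunctional dehydrogenase and lactonase that runs the first oxidative steps inside the endoplasmic reticulum (ER). It had 1063, 1345 and 954 normalized counts in control and 1105, 1207 and 1138 in low glucose. The low-glucose libraries lay within the control range, which library B alone extended upward. The log2 fold change was 0.05 (95% confidence interval -0.18 to 0.28, limma adjusted p = 0.759), and it was 0.19 without library B, where it passed (limma adjusted p = 0.0414, range 0.0414 to 0.950 over all alternatives), and -0.057 without library C. SLC37A4 and G6PC3, which carry and cleave glucose phosphate at the ER membrane, had log2 fold changes of -0.23 and -0.18 and did not pass (limma adjusted p = 0.197 and 0.183), and both share exon bases with a gene on the other strand. HSD11B1, which uses the NADPH made in the ER, had 0 reads in all libraries.

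**Figure D2:**
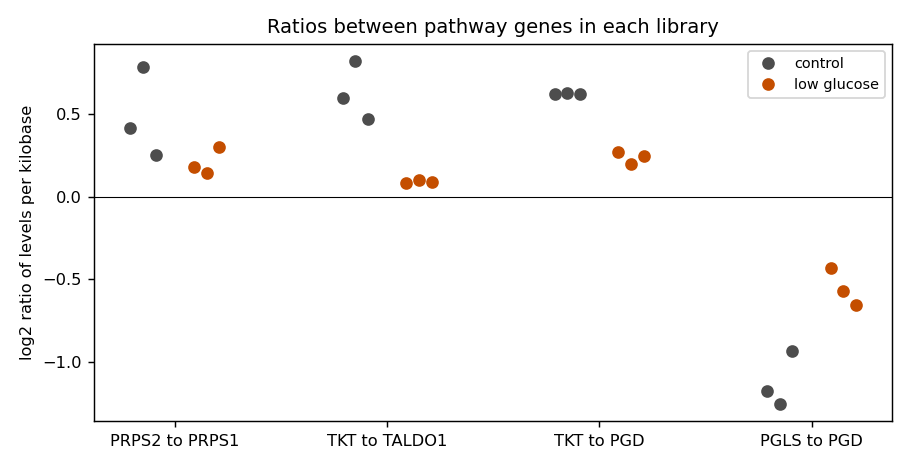
Log2 ratio of levels per kilobase of transcript (vertical axis) between pairs of pathway genes, in each control library (gray) and low-glucose library (orange). The ratios of TKT to TALDO1 and to PGD were lower, and that of PGLS to PGD higher, in every low-glucose library than in any control library, whereas the PRPS2 to PRPS1 ratios overlap between the conditions.

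Levels between genes were compared per kilobase of the canonical transcript. In control TKT was highest at 2113 ± 178 normalized counts per kilobase (SD, n = 3), followed by PGD (1370 ± 112) and TALDO1 (1364 ± 54.7), which did not differ beyond their spread. PRPS2 (845 ± 60.2) came next, then PGLS (629 ± 32.7) and PRPS1 (605 ± 74.0), which were also within their spread of each other. RPIA (345 ± 46.7), RPE (263 ± 15.6) and H6PD (123 ± 22.1) were lowest. Under low glucose the middle of the order changed, with PGLS (869 ± 58.6) above PRPS2 (438 ± 25.3) and PRPS1 (379 ± 2.28). TKT (1502 ± 2.72), TALDO1 (1411 ± 7.42) and PGD (1274 ± 35.0) stayed at the top, now closer together, and the same 3 genes stayed lowest.

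The stretches upstream of the genes that passed are shown because these are the genes whose mRNA differed between the conditions. The sequences come from RefSeq (GRCh38.p14), in which all 9 genes were found, and run from 250 bases before the RefSeq start to the base before the Gencode gene start. Capitals mark matches, on either strand, to the CCAAT box (CCAAT) and the GC box (GGGCGG).
PRPS2, chrX:12791162-12791354, plus strand: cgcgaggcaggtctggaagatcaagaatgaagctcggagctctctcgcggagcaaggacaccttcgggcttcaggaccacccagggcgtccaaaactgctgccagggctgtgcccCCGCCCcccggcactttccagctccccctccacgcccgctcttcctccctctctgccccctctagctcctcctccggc
PRPS1, chrX:107628260-107628427, plus strand: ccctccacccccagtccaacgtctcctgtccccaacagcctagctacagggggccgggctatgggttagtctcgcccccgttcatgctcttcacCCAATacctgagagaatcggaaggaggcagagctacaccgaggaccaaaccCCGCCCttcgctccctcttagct
TKT, chr3:53256053-53256272, minus strand: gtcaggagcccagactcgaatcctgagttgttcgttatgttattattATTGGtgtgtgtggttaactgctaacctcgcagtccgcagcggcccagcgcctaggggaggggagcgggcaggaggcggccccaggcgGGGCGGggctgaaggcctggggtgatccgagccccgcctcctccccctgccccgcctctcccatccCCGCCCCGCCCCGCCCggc
PGLS, chr19:17511399-17511635, plus strand: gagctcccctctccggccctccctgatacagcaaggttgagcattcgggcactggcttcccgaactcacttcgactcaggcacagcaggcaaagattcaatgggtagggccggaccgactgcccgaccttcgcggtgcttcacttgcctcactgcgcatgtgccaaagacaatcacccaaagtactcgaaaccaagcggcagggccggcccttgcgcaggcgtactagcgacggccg

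The 250 bases before the RefSeq start of all 9 genes were searched on both strands for 6 motifs. For H6PD and PGD all of these bases lay inside the gene as Gencode annotates it. The matches of PGD, and the lack of any in H6PD, therefore do not describe bases upstream of the Gencode start. For the other genes except RPIA, the end of the 250 bases lay inside the Gencode gene too. CACGTG (E-box, bound by MYC and related factors), TTTGGCGC (a form of the E2F site) and TGATGNAA (the CARE element of ATF4) had 0 matches in any of the 9, and they occur in 6.34, 0.550 and 3.14% of the 35116 promoters searched in the same way. TGACNNNGC (the antioxidant response element of NRF2) was found in 2 of the 9, PGD and RPE, and in 10.9% of all promoters. Neither of these 2 genes passed the test. CCAAT was found in 6 of the 9 (32.0% of all promoters) and GGGCGG in 7 of the 9 (42.6%). TKT held 5 GC boxes, 3 of them overlapping by 1 base each, and 1 CCAAT box, PRPS1 held 2 GC boxes and 1 CCAAT box, PRPS2 held 1 GC box, and PGLS held no match to any of the 6. The 3 genes that fell thus shared the GC box, and RPE, RPIA, PGD and TALDO1, which did not pass, held it too. The GC boxes that start at -16 in TKT and at -7 in PRPS1, relative to the RefSeq start, lie inside the Gencode gene. They are counted here but are not in the stretches printed above. The only CCAAT box of RPE, at -42, and its GC box at -64 also lie inside the Gencode gene and are counted. A match to these letters describes the sequence and is not evidence of binding.

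Around the pathway, 28 further genes on 5 lists were looked up, of which 23 were tested. Of these 2 rose, 5 fell and 16 did not pass, or 7 of 23, where 30.9% of all tested genes passed. Without library B 12 passed, where 7251 of 21141 tested genes passed in that fit. Without a variance trend 4 passed, where 4090 of 21101 did. Among the 7 enzymes that consume PRPP, 2 fell and 5 did not pass, where 16.2% of all tested genes and 43.7% of the 4112 passed as lower. Their median log2 fold change was -0.21, beside 0.05 over all tested genes and -0.18 over the 4112. UMPS, which joins PRPP to orotate in pyrimidine synthesis, had 1069, 1111 and 1071 normalized counts in control and 669, 623 and 630 in low glucose, with a log2 fold change of -0.76 (SE 0.0770, adjusted p = 5.77e-06 in limma). NAMPT, which uses PRPP for NAD salvage, fell by 0.33 on the log2 scale (limma adjusted p = 0.00281, range 0.000141 to 0.135 over all alternatives, the last with quantile normalization). PPAT, the first enzyme of purine synthesis, and the salvage enzymes HPRT1 and APRT had log2 fold changes of -0.18, -0.21 and -0.15 and did not pass (limma adjusted p = 0.108, 0.0601 and 0.205).

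At the branch points with glycolysis, 3 of 5 enzymes fell, 1 rose and 1 did not pass, where 30.9% of all tested genes and 57.4% of the 4112 passed in either direction. TPI1, which interconverts the triose phosphates, had 16773, 16266 and 18272 normalized counts in control and 11827, 12004 and 11597 in low glucose (log2 fold change -0.53, SE 0.0821, adjusted p = 0.000204 in limma). GPI, which interconverts glucose phosphate and fructose phosphate, fell by 0.36 (limma adjusted p = 0.00348, range 0.000119 to 0.0790). The hexokinases, which make glucose phosphate, went in opposite directions: HK1 had a log2 fold change of -0.43 and HK2 of 0.44 (limma adjusted p = 0.00276 and 0.00250), and neither passed without a variance trend (0.0666 and 0.0686). Among 10 paralogs and side enzymes, of which 7 were tested, IDNK, a gluconate kinase that feeds phosphogluconate to the pathway, rose from 20.2, 16.7 and 23.5 to 53.9, 38.5 and 53.8 normalized counts. Its log2 fold change was 1.23 (SE 0.256, adjusted p = 0.00212 in limma), and it was the 1 gene of this list to pass. TIGAR, a phosphatase that favors the pathway over glycolysis, and RBKS, ribokinase, did not pass (-0.44 and 0.60, limma adjusted p = 0.0804 and 0.0728).

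**Figure D3:**
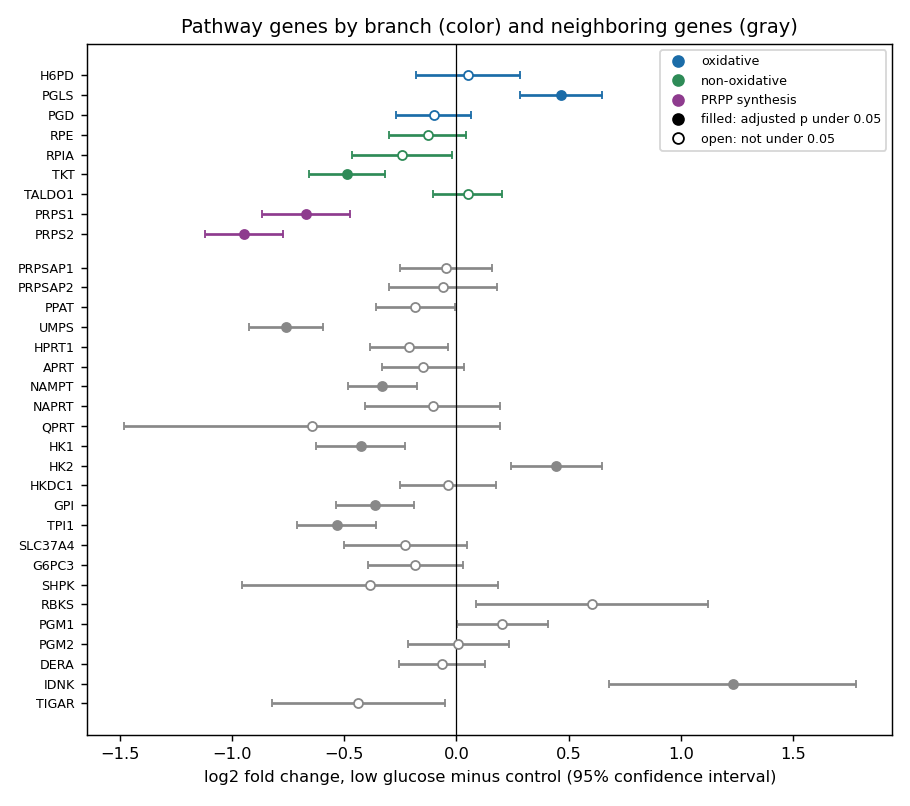
Log2 fold change of each gene, low glucose minus control (horizontal axis), with its 95% confidence interval from limma before adjustment. Filled points had an adjusted p under 0.05: PRPS1, PRPS2 and TKT lie below 0 and PGLS above it among the 9 pathway genes (colored by branch), and UMPS and IDNK lie farthest from 0 among the filled neighboring genes (gray).

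**Figure D4:**
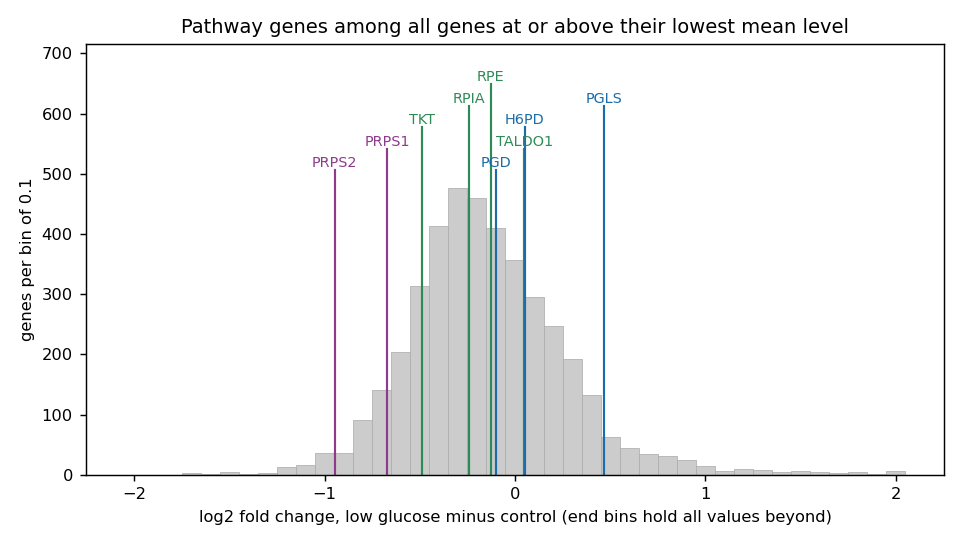
Number of genes (vertical axis) by log2 fold change, low glucose minus control (horizontal axis, bins of 0.1), for the 4112 tested genes with a mean at or above 576 normalized counts. The lines mark the 9 pathway genes: 1.90% of these genes lie to the left of PRPS2, 7.81% to the left of PRPS1 and 6.06% to the right of PGLS.

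Among the 4112 genes at or above the level of RPIA, 1.90% had a lower log2 fold change than PRPS2, 7.81% a lower one than PRPS1 and 17.8% a lower one than TKT. The fold changes of PGD, RPE and RPIA were near the median of these genes (-0.18), with 58.7, 56.2 and 43.6% of the genes below them. H6PD and TALDO1 were higher, with 72.5 and 72.4% below. Quantile normalization moved the median of these 4112 genes from -0.18 to -0.03. With it, PRPS2 was at -0.76, PRPS1 at -0.52, TKT at -0.32 and PGLS at 0.59, and all 4 kept their direction and their call.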

How the data were processed

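According to the methods, the authors trimmed the reads with Trim Galore and mapped them to hg38 with STAR 2.7.0e. The deposited values are a signal in counts: reads per gene over 1 size factor a library. RSEM is listed among the software, but whether it made these counts, with which strand setting and annotation, is not given in the sources used here. Dividing by the value of 1 read gave whole numbers for 100% of the entries in each library (tolerance 0.001 reads), and the factors matched median-of-ratios factors. Of the 60668 gene IDs, 99.4% matched Gencode v44, which gave names, coordinates on hg38 and the canonical transcript lengths behind the levels per kilobase. IDs are printed with the version of the deposited values, which differs from that of Gencode v44 for H6PD, TKT, PRPS1 and PRPS2. Exon numbers are those of the canonical transcript.

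Log2(value + 1) was tested with limma 3.58.1 (R 4.3.3; lmFit, eBayes with trend, two-sided, Benjamini-Hochberg across the 21101 genes whose mean was 1 or more, threshold 0.05). All intervals are at 95% and unadjusted. The methods name DESeq2, which needs raw counts, so DESeq2 1.42.0 and edgeR 4.0.16 (quasi-likelihood) were run on the recovered reads as alternatives. For weakly expressed genes the pseudocount makes changes look smaller. An exact permutation test of 3 against 3 libraries cannot give a p below 0.1 and was not used for calls. Alternatives were other scalings (library size, TMM, quantile), filters (none, a mean of at least 10), a pseudocount of 0.1, no variance trend, both count tests, and each library left out. Tested on simulated data with 200 genes changed by 1 on the log2 scale, limma recovered 188, with 9 false among 197 calls over 20703 genes. All libraries were simulated with the same spread, whereas library B stood apart in the data. Far more genes passed in the data than were changed in the simulation, so these rates need not hold for this comparison. The genes described were chosen by pathway, and those named around them are the genes of 5 lists that passed, the partners discussed beside them, and genes that overlap or copy them. The genes and lists were chosen with earlier results of these data known. Python 3.11.15, pandas 2.3.3 and matplotlib 3.10.9 were used for tables and figures.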

Additional observations from a re-analysis of the deposited data

How the results depend on the processing

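PRPS2, PRPS1, TKT and PGLS passed in the same direction in each of the 15 alternatives. The largest adjusted p was 0.00778 for PRPS2, 0.0201 for PRPS1, 0.0269 for TKT and 0.0310 for PGLS. With 1 library left out, H6PD ranged from -0.057 to 0.19 and RPIA from -0.31 to -0.13, and both passed without library B (0.0414 and 0.00913). Quantile normalization put TALDO1 at 0.26, past the threshold, which made 2 genes higher. It also turned PGD from -0.10 to 0.06, a change that did not pass in either fit. Leaving out 1 library gave 1 to 2 higher genes. The other calls among the 9 genes were unchanged in these alternatives. The median of the oxidative branch was 0.13 with library size and 0.23 with quantile normalization, and -0.057 to 0.19 with 1 library left out, where the non-oxidative median was -0.24 to -0.11. Under these scalings the non-oxidative median was -0.10 and -0.089, and that of the PRPP synthetases -0.73 and -0.64. Without a variance trend 4090 of all genes passed, against 6528, and 4 of the further pathway genes, against 7. Leaving out 1 library gave 4319 to 7251 genes (fewest without library D) and 7 to 12 further pathway genes (most without library B). With library size as the scaling, 3935 genes were higher and 2647 lower, against 3111 and 3417, and quantile normalization split the 4112 genes at or above the level of RPIA into 979 higher and 1141 lower calls, against 565 and 1796. The cause of these shifts was not tested. No paired analysis was possible because the labels give a replicate number for 2 of the 6 columns, both of low glucose.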
